A study of Mus musculus with 3 samples.

Results

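Narrow breaks between lamina-associated domains were described in mouse embryonic fibroblasts. A break was an autosomal gap of under 25 kb between neighbouring domains in the domain list of the Dam-Lamin A sample, measured from the end of one domain to the start of the next. Profiles and lists are named throughout by the sample under which they were deposited. At the edges of these breaks the steep step is in the Dam-Lap2b profile, and at breaks of the Dam-Lap2b list the larger drop is in the Dam-Lamin A profile, so lists or profiles may carry exchanged labels. Which protein a list or profile belongs to could not be settled from the files, and every value below is given under the deposited name. This gave 426 breaks among 1985 autosomal gaps of that list (21.5%), and among 4492 gaps in the 2 lists of the series over all chromosomes. The same length limit took 27 further gaps on chromosome X, which were not included. Because the breaks were chosen from a domain list made from these libraries, their low profile values are part of the choice and are given as a description with no test.

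The nuclear lamina is a protein mesh under the inner nuclear membrane, and lamina-associated domains are long, mostly gene-poor and inactive stretches of chromatin that touch it. In DamID a lamina protein is fused to Dam, a bacterial methyltransferase that acts on GATC, and each fragment between GATC sites gets a value from how often it was methylated. Unfused Dam, which is free to diffuse, methylates accessible chromatin more readily than compact chromatin and serves as the reference. The log2 ratio of fusion over reference can therefore be low where the fusion gives few reads or where the reference gives many.

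Wild-type fibroblasts of the C57BL/6 strain had been transduced with retroviruses for Dam-Lamin A (a fusion to the filament protein Lamin A), Dam-Lap2b (a fusion to the inner nuclear membrane protein Lap2b) or Dam alone. Each of the 3 groups had 1 sample, so no value has a replicate error and no test between groups was possible. Spreads given below are over breaks, which share their libraries and cannot stand in for replicates. The values are averages over many cells, in which a lower frequency of contact and contact in fewer cells cannot be told apart. Whole reads recovered from the log2 values gave library totals of 139457220 (Dam-Lamin A), 151512354 (Dam-Lap2b) and 153450844 (reference). The reference was taken to be the Dam-only library, which no label or header states. These totals are lower bounds. Both profiles are ratios to that same reference, so a reference read added or lost moves both at once.

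The breaks covered 6.21 Mb in all, beside 1268.5 Mb of autosomal domain. Their median length was 13.9 kb, and the middle 50% ran from 10.4 to 19.05 kb. Lengths under 5 kb were found in 8 breaks, whereas 88 lay between 5 and 10 kb, 143 between 10 and 15 kb, 104 between 15 and 20 kb and 83 between 20 and 25 kb. Past the limit there were 64 gaps of 25 to 30 kb and 41 of 30 to 35 kb. The flank taken on each side was 50 kb, which every domain of this list exceeds, so each flank lay inside the domain next to the break. A break touched 754 of the 2004 autosomal domains (37.6%), and the domains beside breaks had a median length of 362 kb against 325 kb for all autosomal domains.

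**Figure D1:**
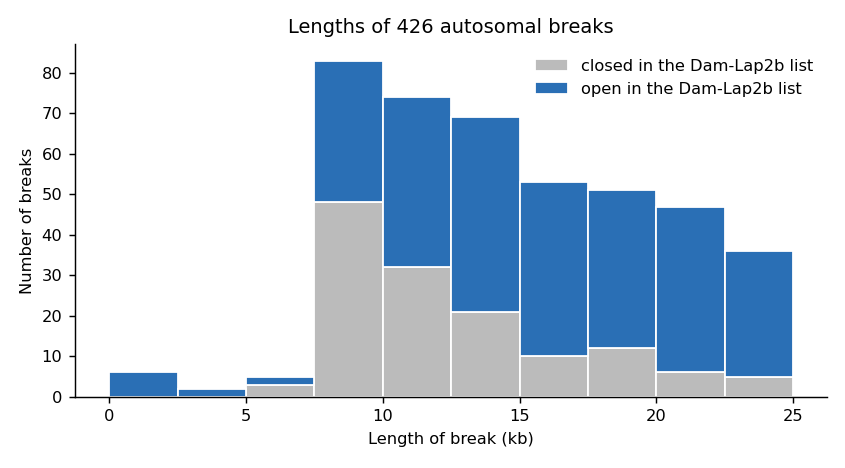
Number of autosomal breaks (y axis) by length in kb (x axis), split by whether any base of the break lay outside the domains of the Dam-Lap2b list. Of the 426 breaks 8 are under 5 kb. All of those are open in the other list, but 5 of them hold no fragment. The share open is 46.9% of all breaks under 10 kb, with those 5 among them, and 86.7% of those of 20 to 25 kb.

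The shortest breaks held no fragment at all. Of 5 such breaks, 4 were exactly 100 bp long, on chromosome 2 (77980883 to 77980982), chromosome 13 (15344683 to 15344782 and 76636462 to 76636561) and chromosome 14 (3941849 to 3941948). The remaining one had 286 bp, on chromosome 1 (145296548 to 145296833), and is named here after its values were seen. In all 5 the fragments on either side carried the same value in both profiles, and the Dam-Lap2b list was cut at the same bases. The flanks were high on both sides. Pooled over both sides, their means were 1.27 to 1.93 in the Dam-Lamin A profile and 1.19 to 1.56 in the Dam-Lap2b profile. These 5 breaks hold no measurement, so no dip was seen in them. Autosomal places where neighbouring fragments lay more than the usual 3 bp apart numbered 457. Of these, 335 likewise had the same values on either side in both profiles, and 1 lay inside a domain of the list. Of the other breaks, 1 held under 5 fragments and 420 were measured, with a median of 35 fragments (9 to 87), and a hole lay in or at the edge of 3 of them. The mean fragment length was alike in breaks and flanks, with medians of 399 and 394 bp.

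Over the 420 measured breaks, the mean of a break had a median of −0.59 in the Dam-Lamin A profile, with the middle 50% from −1.10 to 0.01. The flanks of the same breaks had a median of 0.82 in that profile (0.44 to 1.197). In the Dam-Lap2b profile the break means had a median of −0.45 (−0.78 to −0.18) and the flanks one of 0.92 (0.67 to 1.18). The 2 profiles thus differed most in their spread, since break means ran more widely in the Dam-Lamin A profile. The difference of break minus flank had a median of −1.34 in the Dam-Lamin A profile (5th to 95th percentile −2.43 to −0.30) and −1.38 in the Dam-Lap2b profile (−2.16 to −0.93). The break lay below its flanks at 408 breaks in the former profile and at 419 in the latter. Among all autosomal 10 kb bins with flanks of their own, 51.7% and 48.3% did so. Since the breaks were chosen by a list made from these libraries, nothing is read from these counts or the next ones.

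A drop of at least 1 on the log2 scale was present at 294 breaks in the Dam-Lamin A profile and at 381 in the Dam-Lap2b profile. The background among autosomal 10 kb bins was 5.52% and 2.2%. Both profiles had such a drop at 278 breaks, against 0.986% of bins, and neither had one at 23. A mean below 0, where the fusion falls short of the reference, was found at 315 breaks in the former profile and at 380 in the latter. The background here was 45.8% and 42.3% of bins. By fragment, 60.2% of break fragments in the Dam-Lamin A profile and 62.6% in the Dam-Lap2b profile were below 0. In domains of the list the share was 16.1% and 10.05%, and over all autosomal fragments it was 40.1% and 38.6%. Low fragments did not fill the breaks, and the longest run of neighbouring fragments below 0 had a median of 9 in the former profile and 8 in the latter.

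**Figure D2:**
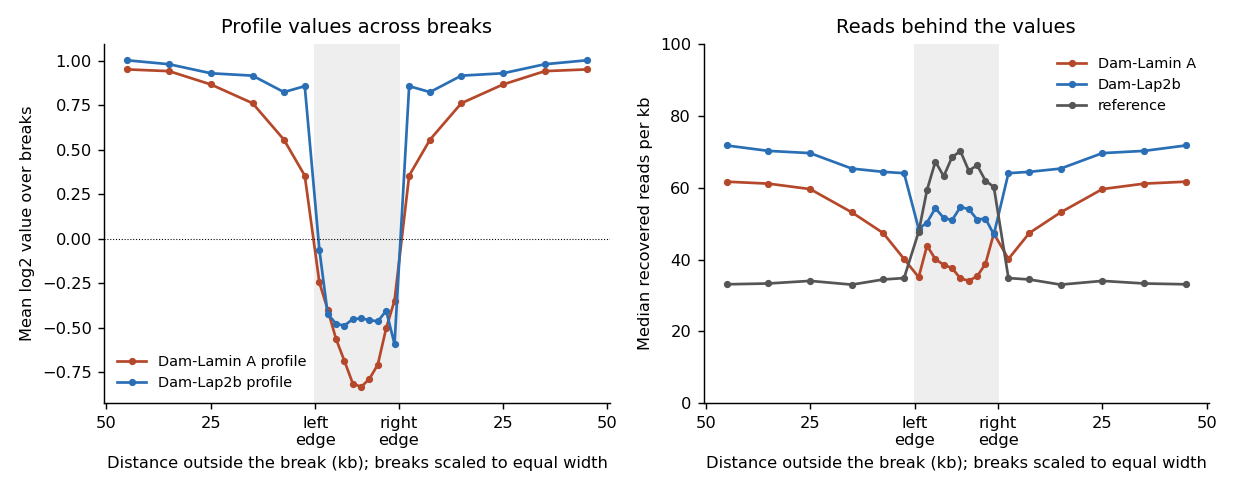
Left, mean log2 value over 420 breaks of the 2 profiles; right, median recovered reads per kb of the 3 libraries, both against position, with each break scaled to 10 equal parts (grey) and distance outside it in kb. Values of the left and right flank were pooled, so the flanks are drawn as mirror images; the reference is high inside the breaks and level outside.

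The 2 profiles approached the breaks in different ways. In the Dam-Lap2b profile the flank mean was 1.00 ± 0.41 (SD over breaks) at 50 to 40 kb from the edge and still 0.86 ± 0.42 in the last 5 kb. With each break cut into 10 equal parts, it was −0.06 in the first part and between −0.40 and −0.49 from the second part to the ninth, and it was lowest in the last part, at −0.59. In the Dam-Lamin A profile the flank mean was 0.95 ± 0.63 at 50 to 40 kb, 0.76 ± 0.65 at 20 to 10 kb and 0.35 ± 0.81 in the last 5 kb, and it was lowest in the sixth part of the break, at −0.83. The former profile was thus level up to the edge, and the latter sloped from outside the break to its middle. In the Dam-Lap2b profile the fragment that starts at the left edge had a median of 0.95 and was above 0 at 387 breaks, and the next fragment had −0.58 and was above 0 at 112. At the other end, the last fragment of the break had −0.56 and the fragment past the right edge 0.98. In the Dam-Lamin A profile these 4 medians were 0.08, −0.27, −0.28 and 0.08. The steep step at these edges was thus in the profile of the other sample, not in that of the sample whose list defines them. Lists or profiles may carry exchanged labels, which was not tested, and which protein each belongs to could not be settled. The left edge was the start of a fragment at 417 breaks. The first fragment counted to the break was mostly one with a high value in the Dam-Lap2b profile. In the Dam-Lamin A profile that fragment was above 0 at 238 breaks.

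The ratio was then split into the reads behind it. The reference held a median of 81.6 reads per kb in breaks and 34.5 in their flanks, and the ratio of break to flank had a median of 2.34-fold (log2 1.22, 5th to 95th percentile 0.13 to 2.29). The Dam-Lamin A library held 47.2 reads per kb in breaks and 56.2 in flanks, with a median ratio of 0.85 (log2 −0.24, −1.41 to 1.11). The Dam-Lap2b library held 60.0 and 68.4, with a ratio of 0.87 (log2 −0.20, −1.55 to 0.66). By these medians the reference was thus higher in breaks than in flanks by more than either fusion was lower, though not at every break. The reference was above the flanks at 404 breaks, against 40.2% of autosomal 10 kb bins, and at least 2-fold above them at 269 breaks, against 5.11% of bins. Dam-Lamin A reads were at least 2-fold below the flanks at 55 breaks, and Dam-Lap2b reads at 49. These 2 counts stand beside a background of 11% and 4.68% of bins. The breaks were chosen by a list made from these libraries, and the ratio is also low where the reference is high. High reference reads can thus be part of the choice too, so nothing is read from these counts or those of the next paragraph.

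At 237 breaks the reference was at least 2-fold higher while neither fusion was 2-fold lower, against 4.97% of autosomal bins. All 3 libraries had more reads per kb in the break than in the flanks at 72 breaks, against 21.8% of bins. Along the breaks, median reference reads were 33.1 per kb at 50 to 40 kb, 34.8 in the last 5 kb of the flank, 47.7 in the first part of the break and 70.2 in the sixth. Dam-Lamin A reads were 61.7 per kb at 50 to 40 kb and already 40.2 in the last 5 kb, whereas Dam-Lap2b reads were 71.8 and 64.0. The gradual slope of the Dam-Lamin A profile outside the breaks therefore lay in its own reads. Inside the break the reference was above its flank level in each of the 10 parts, and both fusions were below theirs at 50 to 40 kb. Against the last 5 kb of the flank, Dam-Lap2b reads were also lower in each part, at 54.6 per kb or less. Dam-Lamin A reads were higher than in that last 5 kb in part 2 (43.9 per kb) and part 10 (47.3). In the other parts they ran from 34.1 to 40.1 per kb. Fragments of 200 to 1000 bp alone gave a reference ratio of 1.18 on the log2 scale.

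**Figure D3:**
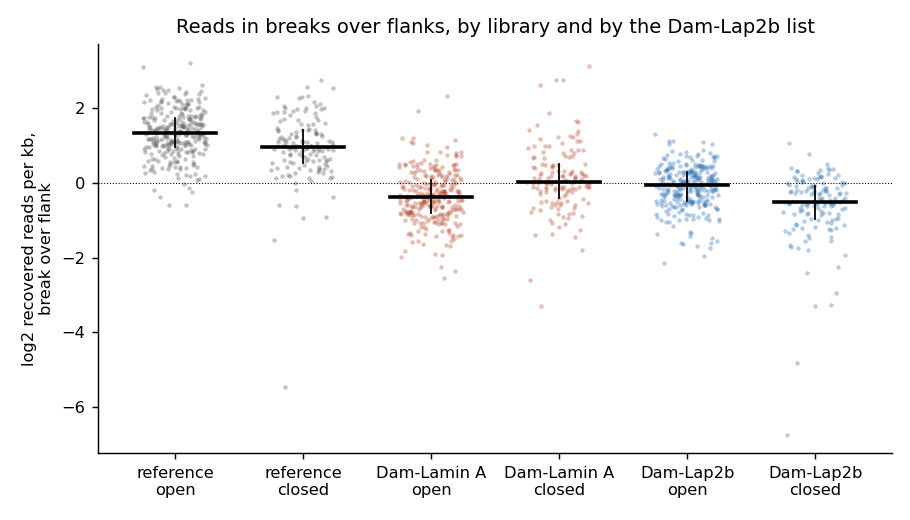
Log2 ratio of recovered reads per kb, break over flank (y axis), for each library and split by whether the break was open in the Dam-Lap2b list (283 open, 137 closed). Points are breaks, thick bars medians and thin bars the middle 50%; the reference lies above 0 at 404 of 420 breaks.

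The Dam-Lap2b list had an opening at most but not all of these places. Any base outside its domains was found at 289 breaks, or 67.8% (exact Clopper-Pearson 95% interval 63.2 to 72.3%, for counting error only), and 137 breaks lay wholly inside a domain of that list. Over all autosomal gaps of the Dam-Lamin A list the share was 91.2%, since wider gaps were open more often, 95.03% of those of 25 to 200 kb and 99.9% of longer ones. The break was open over its whole length in 189 cases and in part in 100. The 5 breaks without a fragment are among the 189. The opening was seldom as narrow as the break. Its gap in the Dam-Lap2b list was under 25 kb in 89 cases, 25 to 200 kb in 116 and longer in 83, with a median of 53.96 kb, and 1 break lay before the first domain of its chromosome in that list. Some breaks lay in the same gap of that list, which was then counted once for each break. The interval above takes the breaks as independent, which they are not in such places. A break of either list overlapped one of the other in 89 cases, which is 20.9% of the 426 and 20.7% of the 430 breaks of the Dam-Lap2b list. Both edges fell on the same base in 9 cases, and 5 of those were the holes without a fragment.

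Breaks that were closed in the Dam-Lap2b list had higher median values than open ones in both profiles, by more in the Dam-Lamin A profile. That list was made from these libraries too, so such differences can be part of the split itself. They are given as a description, and nothing is read from them. At the 137 closed breaks the mean of the break had a median of 0.26 in the Dam-Lamin A profile and −0.33 in the Dam-Lap2b profile. At the 283 open breaks with enough fragments the medians were −0.87 and −0.54. Break minus flank was −0.82 at closed and −1.55 at open breaks in the former profile, and −1.37 and −1.38 in the latter. A mean below 0 was found at 47 closed and 268 open breaks in the Dam-Lamin A profile, and at 115 closed and 265 open breaks in the Dam-Lap2b profile. The reads of the 2 fusions differed in opposite directions. Dam-Lamin A reads in closed breaks stood at 1.01 times those in flanks and Dam-Lap2b reads at 0.70 times, while in open breaks the ratios were 0.76 and 0.95. The reference was higher than in the flanks in both classes, 1.94-fold at closed and 2.498-fold at open breaks. Closed breaks were also shorter, with a median of 11.2 kb against 15.6 kb.

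**Figure D4:**
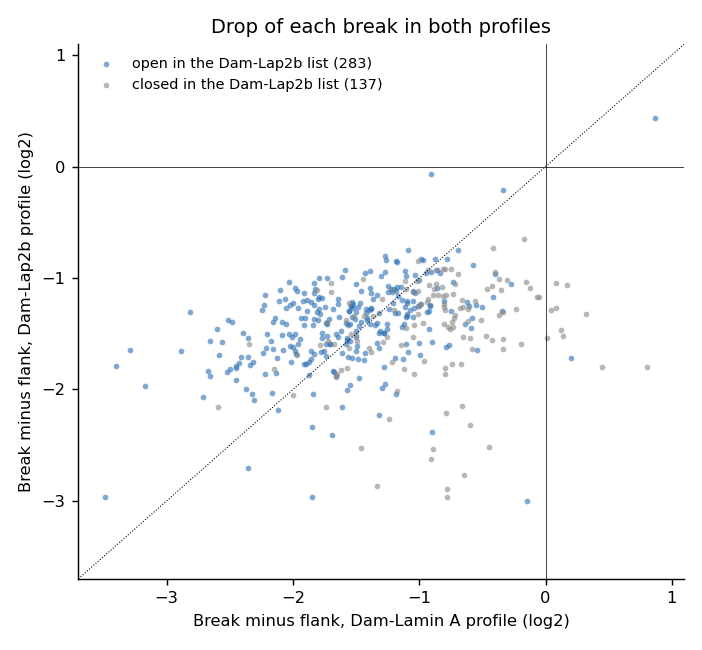
Break minus flank (log2) in the Dam-Lap2b profile (y axis) against that in the Dam-Lamin A profile (x axis) for 420 breaks; the dotted line marks equal values. Closed breaks (grey) lie to the right of open ones, with medians of −0.82 and −1.55 on the x axis and −1.37 and −1.38 on the y axis. Both axes share the reference, and the list that splits the breaks was made from the same libraries.

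The shortest breaks stood apart in the Dam-Lamin A profile, with a smaller drop than the longer classes, whereas in the Dam-Lap2b profile the drop was slightly smaller with each longer class. In the 90 measured breaks under 10 kb the median of break minus flank was −1.01 in the Dam-Lamin A profile and −1.53 in the Dam-Lap2b profile. In those of 20 to 25 kb it was −1.39 and −1.27. Breaks of 10 to 15 kb gave −1.45 and −1.47, and those of 15 to 20 kb −1.38 and −1.31. The share open in the Dam-Lap2b list was 46.9% of 96 breaks under 10 kb, 62.9% of 143, 78.8% of 104 and 86.7% of 83 in the longest class. The reference ratio varied little, from 2.22-fold in the longest class to 2.53-fold in breaks of 10 to 15 kb.

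The deepest break by both profiles was on chromosome 3 (110047048 to 110056472, 9.42 kb). Its mean was −2.08 in the Dam-Lamin A profile against 1.41 in the flanks, and −1.67 against 1.30 in the Dam-Lap2b profile. All 23 fragments were below 0 in the former and 20 in the latter, while of 292 flank fragments 32 and 14 were below 0. The lowest fragment of the Dam-Lamin A profile had −4.31 and that of the Dam-Lap2b profile −6.24, both near the middle. A fragment of 299 bp (110052862 to 110053160) held 5 reads of Dam-Lamin A, 0 of Dam-Lap2b and 76 of the reference, with log2 values of −3.60 and −6.24. The first fragment of the break, 884 bp long, held 74, 102 and 83 reads and log2 values of −0.08 and 0.32. Over the whole break the reference had 207 reads per kb against 35.7 in the flanks, Dam-Lamin A 47.9 against 98.5, and Dam-Lap2b 119 against 98.1. Over the whole break Dam-Lap2b reads per kb were thus above the flanks and Dam-Lamin A reads below them, while in the fragment of 299 bp both fusions had few reads. The break was open over its whole length in the Dam-Lap2b list, in a gap of 10.7 kb.

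The next 5 in rank lay on chromosomes 9, 6, 10, 6 and 3. On chromosome 9 (94429914 to 94442325) the mean was −1.19 against 1.17 in the flanks in the Dam-Lamin A profile, and −1.31 against 1.40 in the other profile. On chromosome 6 (133053259 to 133065779) the values were −0.66 against 1.94 and −0.50 against 1.65. This was the only one of the 6 that lay wholly inside a domain of the Dam-Lap2b list. On chromosome 10 (105270281 to 105288120) they were −0.84 against 1.28 and −0.84 against 1.34. A further break on chromosome 6 (77048145 to 77064102) had −1.49 against 0.81 and −0.90 against 1.19. Here the reference held 137 reads per kb against 24.9 in the flanks, Dam-Lap2b 95.7 against 59.2 and Dam-Lamin A 36.6 against 42.9. The break on chromosome 3 (123205561 to 123214912) had −2.90 against −0.18 and −1.73 against 0.34, so that its flanks were low too. It held 420 reference reads per kb against 49.3, and the Dam-Lap2b list had a gap of 2432 kb there.

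The profiles differed most at breaks of 2 kinds. A larger drop in the Dam-Lap2b profile was found on chromosome 11 (21895254 to 21905013), with −2.79 against 0.21 in that profile and −0.22 against −0.07 in the other. Dam-Lap2b reads there were 17.9 per kb against 50.1 in the flanks, whereas Dam-Lamin A reads were 83.7 against 37.8. Chromosome 5 (129103455 to 129113470) had −1.20 against 0.60 in the Dam-Lap2b profile and 2.41 against 1.61 in the other. Chromosome 3 (6296150 to 6307681) had −0.44 against 1.36 and 1.64 against 1.19, over 77 fragments. In these last 2 breaks Dam-Lamin A reads were higher in the break than in the flanks, 192 against 100.3 and 134 against 56.7 per kb. Both lay wholly inside a domain of the Dam-Lap2b list. A larger drop in the Dam-Lamin A profile was found on chromosome 10 (125215604 to 125226889), with −2.05 against 1.24 there and −0.46 against 1.19 in the other profile. Chromosome 3 (53656841 to 53671433) had −2.87 against 0.53 and −0.97 against 0.82, with 8.13 Dam-Lamin A reads per kb against 47.2 in the flanks. Chromosome 9 (11320771 to 11332359) had −1.86 against 0.96 and −0.16 against 1.15. These 3 were open over their whole length in the Dam-Lap2b list.

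**Figure D5:**
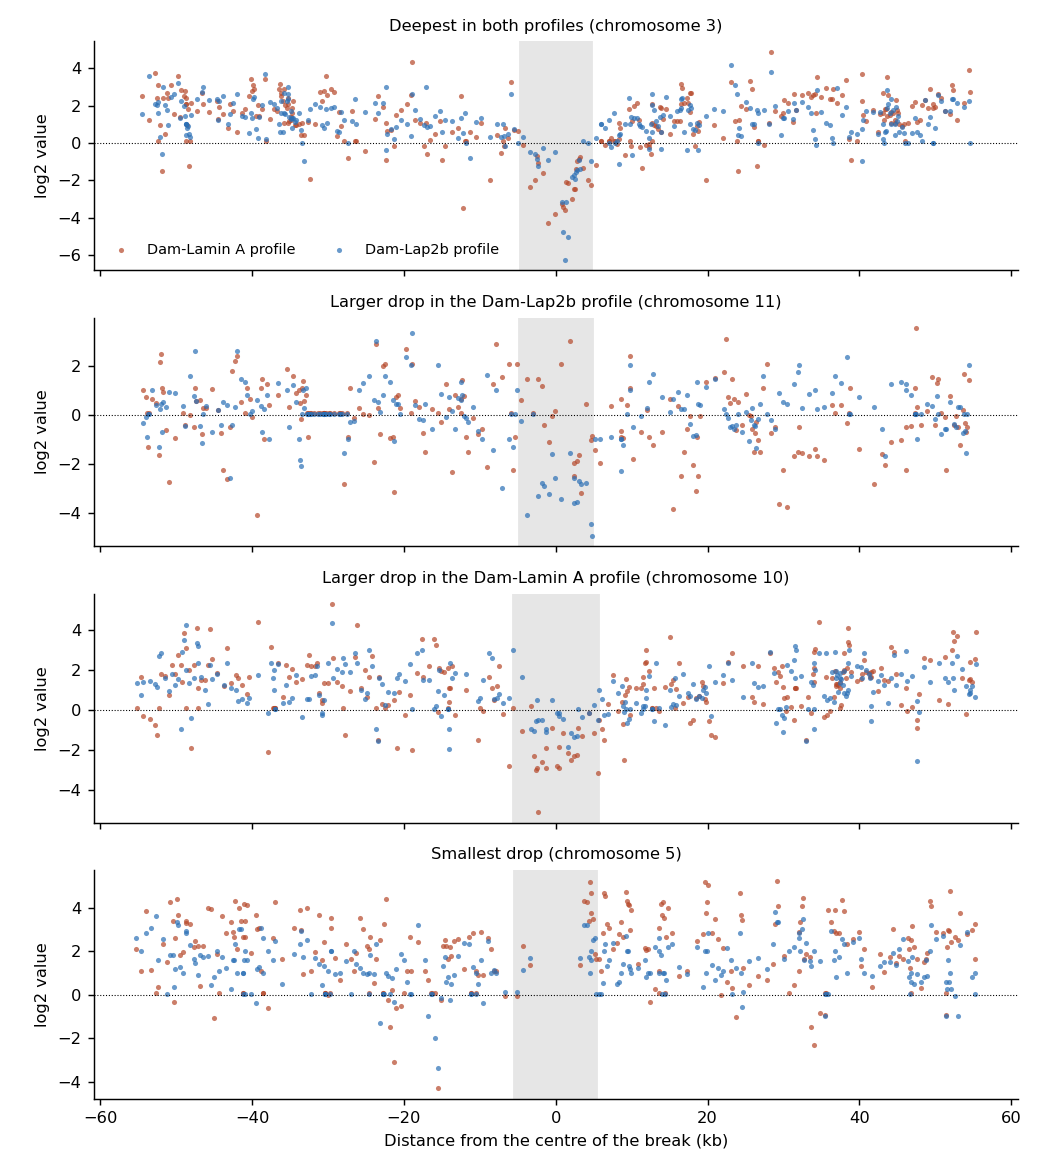
Log2 value of each GATC fragment in the 2 profiles (y axis) against distance from the centre of the break in kb (x axis) for 4 breaks, with the break in grey and 50 kb to each side. From top: the deepest break in both profiles, the largest excess of drop in the Dam-Lap2b profile, the largest excess in the Dam-Lamin A profile, and the smallest drop.

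The 3 smallest drops were the breaks on chromosomes 5 and 3 just given and one more on chromosome 5 (128867875 to 128878844). The latter was higher than its flanks in both profiles, with 2.89 against 2.03 and 1.74 against 1.31. Its 13 fragments covered 4175 of its 10970 bp, the rest holding no fragment, and the Dam-Lap2b list had the same edges. In the Dam-Lamin A profile 12 breaks were not below their flanks, and in the Dam-Lap2b profile 1 was not. The signs were opposite at 11 breaks, against 35.1% of autosomal bins. The widest break, just inside the length limit at 24899 bp (chromosome 3, 21149681 to 21174579), had −0.67 against 0.60 and −0.04 against 0.90. The narrowest gap past the limit had 25010 bp (chromosome 17, 41004641 to 41029650), with −1.82 against −0.65 and −1.14 against 0.19.

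Breaks followed each other along the chromosomes in some places. Of 328 runs of breaks with no wider gap between them, 242 held 1 break, 77 held 2, 7 held 3, 1 held 4 and 1 held 5. The longest run lay on chromosome 1 (146229612 to 151653566), where 5 breaks parted 6 domains over 5.42 Mb. Break means there were −0.76, −2.03, −1.41, 0.75 and −0.18 in the Dam-Lamin A profile and −0.26, −0.79, −0.48, −0.16 and −0.26 in the other profile. The fourth of them (149350007 to 149357353) differed from its neighbours in having 26.2 reference reads per kb against 20.01 in the flanks, whereas the others had 117 to 159 against 25.02 to 30.8. On chromosome 10 (81123326 to 82077916) 4 breaks parted 5 domains over only 0.955 Mb. Their means were 0.95, −0.0024, −0.65 and −0.09 in the Dam-Lamin A profile and 0.06, −0.36, −0.35 and −0.34 in the other, and 3 of them were closed in the Dam-Lap2b list. On chromosome 14 (106308937 to 117310427) 3 breaks parted 4 domains, with −0.59, 0.67 and −1.88 in the former profile and 0.03, −0.70 and −1.23 in the latter. The median distance from a break to the nearest other one was 1.24 Mb.

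Every autosome held breaks, from 9 on chromosome 18 to 44 on chromosome 3. Per 100 Mb of listed domain the lowest number was 19.7, on chromosome 18, and the highest 56.04, on chromosome 10, followed by 51.3 on chromosome 13. The median of break minus flank ranged over chromosomes from −1.67 (chromosome 3) to −1.01 (chromosome 8) in the Dam-Lamin A profile and from −1.56 (chromosome 11) to −1.15 (chromosome 15) in the Dam-Lap2b profile. The log2 reference ratio ranged from 0.85 on chromosome 5 to 1.55 on chromosome 14, so that reference reads were higher in breaks than in flanks on each of the 19 autosomes.

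Wider gaps and the breaks of the other list are given beside these values without a test. The 672 gaps of 25 to 200 kb that could be measured had a median of break minus flank of −1.17 in the Dam-Lamin A profile and −0.98 in the Dam-Lap2b profile, and a reference ratio of 1.96-fold. Fusion reads in them stood at 0.80 and 0.90 times those in flanks, close to the 0.85 and 0.87 of the breaks. At 424 measured breaks of the Dam-Lap2b list the drop was −1.85 in the Dam-Lamin A profile and −0.81 in the Dam-Lap2b profile. The larger drop was thus in the profile of the other sample, with the same doubt about the labels. Dam-Lamin A reads stood there at 0.44 times those in flanks, Dam-Lap2b reads at 0.90 times and reference reads at 1.62 times. Of these 430 breaks, 32.6% were open in the Dam-Lamin A list.

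Dips of the same size also occurred where the list had no break. Among 104825 bins of 10 kb that lay with both flanks inside 1 domain of the Dam-Lamin A list, 425 (0.405%) were at least 1 below their flanks in both profiles, in 411 separate places. Their mean was below 0 in 296 bins of the Dam-Lamin A profile and in 243 of the Dam-Lap2b profile. Their log2 ratios of reads, bin over flank, had medians of 1.13 in the reference, −0.45 in Dam-Lamin A and −0.20 in Dam-Lap2b. Among the same bins, 3.73% were at least 1 below their flanks in the Dam-Lamin A profile and 0.736% in the Dam-Lap2b profile. Lower than the flanks by any amount were 50.9% and 47%, and a mean below 0 was found in 6.04% and 1.72%. The reference was above the flanks in 43.2% and at least 2-fold above them in 2.8%, while Dam-Lamin A reads were at least 2-fold below in 9.21% and Dam-Lap2b reads in 2.6%.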

How the data were processed

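Each profile held, as deposited by the authors, log2 values per GATC fragment, and each list the start and end of domains with no score. Bowtie and mm9 are named in the submitters' processing notes; counting, normalization and the domain caller are not given in the sources used here. Positions are mm9, counted from 1. No sequence or gene annotation of mm9 was used, so no gene is named.

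A fragment belonged to a break or flank by its middle. Means were taken over fragments, in breaks with at least 5, and flanks were 50 kb on each side. Reads were recovered as the smallest whole numbers, with denominators up to 5000, that gave both log2 values as a constant (0.085 for Dam-Lamin A, 0.022 for Dam-Lap2b) plus log2((fusion + 1)/(reference + 1)). This worked for 99.997% of fragments. No header or label states this form. The scripts were tested on simulated reads. The 1 added to each count pulls fragments with few reads towards the constant. Mean log2 drops can thus be understated, or overstated where a break with few reads has flanks well above the constant. Background bins of 10 kb tiled the autosomes. Samples were grouped by the group in the labels.

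Named breaks, with at least 10 fragments, were the 6 largest and 3 smallest drops by the smaller of both drops, the 3 largest differences between profiles in each direction, the narrowest, the widest, and the 3 longest runs. Members, lists and rules were chosen with earlier results of these data known. Python 3.11.15, numpy 2.4.6, pandas 2.3.3 and scipy 1.17.1 were used.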

Additional observations from a re-analysis of the deposited data

Results flagged for a closer look

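Among the named breaks, 2 moved in opposite directions in the 2 profiles. On chromosome 5 (129103455 to 129113470) break minus flank was 0.81 in the Dam-Lamin A profile and −1.80 in the Dam-Lap2b profile. On chromosome 3 (6296150 to 6307681) it was 0.45 and −1.80. With 1 sample in each group, this difference was not tested. Opposite signs were found at 11 of 420 measured breaks and at 35.1% of autosomal 10 kb bins. In the Dam-Lap2b profile 419 of the measured breaks were below their flanks, and in the Dam-Lamin A profile 408. The breaks were chosen by a list made from these libraries, so nothing is read from the count of opposite signs, and its cause was not tested.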

How the results depend on the processing

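Of 41 alternatives, 27 kept the count within 1.5 times, or the value within the 95% binomial interval of the share or the median. None of the 41 changed a direction, but those for counts and shares could not have done so. A length limit of 10 kb left 96 breaks, of which 44 were at least 1 below their flanks in both profiles and 46.9% were open in the Dam-Lap2b list. The median of break minus flank was then −1.01 in the Dam-Lamin A profile and −1.53 in the Dam-Lap2b profile. For the same 2 profiles it was −1.16 and −1.30 with weights by fragment length, −1.15 and −1.32 with flanks of 20 kb, and −1.49 and −1.42 from summed reads. In the Dam-Lap2b profile it was −1.32 with medians over fragments and −1.43 without the first fragment of each break, an alternative chosen after seeing the data. The count of breaks at least 1 below their flanks in both profiles, 278 in the main setting, moved within the limit of 1.5 times. It was 216 with weights by fragment length and 230 with flanks of 20 kb. For a drop of at least 0.5 it was 380. With the settings other than these and the 10 kb limit it ran from 268 to 293. Breaks open over their whole length in the Dam-Lap2b list made up 44.4%. The cause was not tested, except that fewer breaks remain at 10 kb. No paired analysis was possible because each group had 1 sample. The lists carry no score, so no stricter threshold could be tried. Breaks held a median of 680 recovered reads of Dam-Lamin A, 852 of Dam-Lap2b and 1198 of the reference, so single fragments are imprecise.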

Other observations

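At 2 breaks, named after their values were seen, the reference was more than 2-fold lower than in the flanks. On chromosome 3 (16922391 to 16936648) the 28 fragments held 69 recovered reads of Dam-Lamin A, 30 of Dam-Lap2b and 5 of the reference over 14.3 kb, whereas the flanks held 47.6, 59.5 and 15.5 reads per kb. The break means there were 0.24 and 0.08, near the constants of the profiles. Also on chromosome 3 (93084058 to 93096845), 36 fragments held 206, 10 and 112 reads. The break means were 0.73 against 2.19 in the flanks in the Dam-Lamin A profile, and −1.26 against 1.27 in the Dam-Lap2b profile. Both breaks lay wholly inside a domain of the Dam-Lap2b list. Both are also among the 278 breaks at least 1 below their flanks in both profiles, though few reads lie behind their values. At the other end, a break on chromosome 15 (68906455 to 68918353), also named after its values were seen, had 542 reference reads per kb against 58.4 in the flanks (9.28-fold). Dam-Lamin A reads were 356 against 71.3 and Dam-Lap2b reads 180 against 97.9, so all 3 libraries were higher in that break, and its log2 means were −0.95 and −1.20.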
